A study of Mus musculus with 4 samples.

Results

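The genes described here are 10 collagen chain genes of RIF-1, a fibrosarcoma cell line that arose in an irradiated mouse, read after RNA interference against Bre1a (Rnf20) or Bre1b (Rnf40). The members are Col1a1, Col1a2, Col3a1, Col4a1, Col4a2, Col5a1, Col5a2, Col6a1, Col6a2 and Col12a1, and every spot carrying one of these symbols was taken. They have 13 of the 38784 spots and 51 values, and 9 of the 10 genes have at least 1 spot with a value on all 4 arrays. Col12a1 had no spot under its symbol and is not analysed here. The 9 genes measured stand among 8676 named genes tested.

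The data are 4 two-colour arrays. On each, RNA of a Bre1a or a Bre1b knockdown carried Cy5 and RNA of a control carried Cy3. The control was a mock knockdown aimed at GFP on 1 array of each knockdown and cells with no knockdown on the other, so each knockdown has 2 arrays, numbered 2 and 1 in the titles. All RNA came from RIF-1 cells, and the labels give neither the reagent, the time after knockdown nor whether the RNAs came from separate cultures. The p-values therefore cover the variation among these 4 arrays alone, which may be technical. Each value is a log2 ratio, knockdown over control. A mean ± SD is over the 2 arrays of a knockdown (n = 2), and its SD takes in how mock and no knockdown cells differ. With no dye swap, a dye bias of a gene and an effect of the knockdown cannot be told apart. Ratios hold no level, so the abundance of a chain and the fibrosarcoma label could not be read from them, and less of a transcript per cell cannot be told from fewer cells that make it.

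The targeted genes were read first, as a check of the labels. Rnf20 had -1.35 and -1.60 against mock and no knockdown on the Bre1a arrays, and 0.51 and 0.42 on the Bre1b arrays. The complete Rnf40 spot had 0.65 and 0.17 on the Bre1a arrays, and -1.23 and -1.49 on the Bre1b arrays. On these complete spots each target was lower on both arrays labelled with its knockdown than on the other arrays. A second Rnf40 spot had no value on the Bre1b arrays, and read 0.56 and -1.92 on the Bre1a arrays against mock and no knockdown.

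Collagens are secreted proteins of 3 chains wound into a triple helix. Types I, III and V form the fibrils of connective tissue, type IV forms the network of basement membranes, and type VI forms beaded filaments beside cells. Col1a1 and Col1a2 encode the chains of type I, Col3a1 the chain of type III, Col5a1 and Col5a2 chains of type V, which starts fibrils, Col4a1 and Col4a2 the common chains of type IV, and Col6a1 and Col6a2 chains of type VI. Fibroblasts and tumours derived from them are major producers of fibrillar collagen. The proteins of Rnf20 and Rnf40 pair to form the ubiquitin ligase of histone H2B.

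After Bre1a knockdown both type IV genes and Col1a1 were higher than in the controls, Col4a2 at 166% of control, Col4a1 at 145% and Col1a1 at 140%. Both type VI genes and Col3a1 were lower, Col6a1 at 56.7%, Col6a2 at 63.8% and Col3a1 at 52.4%, the last with spots that disagree. After Bre1b knockdown Col5a1 and Col4a2 were higher, at 132% and 123% of control, and Col5a2 and Col6a1 lower, at 59.4% and 77.0%. The calls need the term for the control in the model, as given with the tests below.

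Col4a1 and Col4a2 lie head to head on chromosome 8, on opposite strands. Col6a1 and Col6a2 lie in tandem on the minus strand of chromosome 10, separated by 2 annotated genes of which 0 are protein coding. RefSeq's promoter table for GRCm38.p6 held windows of 300 bases, from 250 before to 50 after a start, for 7 of the 10 members, in 8 windows. The windows of these type IV and type VI genes are shown because both members of each pair passed the test after Bre1a knockdown. The Col1a2 window, not shown, holds CCAAT or ATTGG 2 times and GGGCGG or CCGCCC 2 times. They are written 5′ to 3′ on the strand of the gene, and capitals mark CCAAT or its reverse complement ATTGG.
Col4a1, chr8:11312777-11313076, minus strand: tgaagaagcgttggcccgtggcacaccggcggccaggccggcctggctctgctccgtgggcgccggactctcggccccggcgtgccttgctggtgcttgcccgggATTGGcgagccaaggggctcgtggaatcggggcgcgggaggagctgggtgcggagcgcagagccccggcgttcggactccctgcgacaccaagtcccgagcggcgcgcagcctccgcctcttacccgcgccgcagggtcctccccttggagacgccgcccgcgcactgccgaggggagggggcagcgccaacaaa
Col4a2, chr8:11312555-11312854, plus strand: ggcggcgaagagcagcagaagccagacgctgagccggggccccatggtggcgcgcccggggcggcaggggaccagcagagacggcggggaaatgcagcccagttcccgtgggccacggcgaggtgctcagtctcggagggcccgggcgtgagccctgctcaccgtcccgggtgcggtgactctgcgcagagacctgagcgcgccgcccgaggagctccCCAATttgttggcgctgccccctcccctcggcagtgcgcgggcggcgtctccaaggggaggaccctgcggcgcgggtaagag
Col6a1, chr10:76725995-76726294, minus strand: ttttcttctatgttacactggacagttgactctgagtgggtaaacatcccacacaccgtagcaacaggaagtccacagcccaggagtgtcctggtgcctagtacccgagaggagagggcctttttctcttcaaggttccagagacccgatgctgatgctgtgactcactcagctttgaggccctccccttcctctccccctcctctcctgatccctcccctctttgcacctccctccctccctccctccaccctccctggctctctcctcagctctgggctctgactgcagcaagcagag
Col6a2, chr10:76623355-76623654, minus strand: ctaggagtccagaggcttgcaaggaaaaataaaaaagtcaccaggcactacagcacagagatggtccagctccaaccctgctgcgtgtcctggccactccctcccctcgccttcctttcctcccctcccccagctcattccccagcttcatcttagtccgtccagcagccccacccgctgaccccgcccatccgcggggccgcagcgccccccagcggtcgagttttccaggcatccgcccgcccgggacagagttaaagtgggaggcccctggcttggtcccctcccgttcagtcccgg
The Col4a1 and Col4a2 windows share 78 bases, read on opposite strands, and their annotated starts are 21 bases apart. Each holds CCAAT or ATTGG once, with its first letter at position -145 of Col4a1 and -32 of Col4a2, counted from the start. The Col6a1 window and both Col6a2 windows hold 0. Of all 32851 windows of this length, 37.4% hold this motif on either strand. The GC box letters GGGCGG, or CCGCCC, occur 1 time in the Col4a1 window and 3 times in that of Col4a2. The Col4a1 match lies in the shared bases and is also 1 of these 3. These letters occur 0 times in the Col6a1 window, 3 times in the Col6a2 window shown and 1 time in the other Col6a2 window. Of all windows, 35.7% hold at least 1. The type IV windows hold 37 and 33 CG dinucleotides, against 3 in Col6a1, 16 in the Col6a2 window shown and 6 in the other Col6a2 window. The Col5a1 window, not shown, holds 34, although Col5a1 did not pass after Bre1a knockdown. Those of Col1a2 and Col3a1 hold 13 and 0. The CG count over all windows was not read. A match of letters is a description and not a binding site.

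Of the type IV chains, Col4a2 had log2 ratios of 0.64 against mock and 0.82 against no knockdown on the Bre1a arrays, and 0.18 and 0.42 on the Bre1b arrays. All 4 values were above 0, and both Bre1a values lay above both Bre1b values. Its mean was 0.73 ± 0.13 for Bre1a (SD, n = 2, limma adjusted p = 0.0212) and 0.30 ± 0.16 for Bre1b (limma adjusted p = 0.0178). Col4a1, its partner in the same trimer, had 0.32 and 0.74 against mock and no knockdown on the Bre1a arrays, and -0.32 and -0.03 on the Bre1b arrays. The Bre1a values were positive and the Bre1b values negative, with no overlap. Col4a1 averaged 0.53 ± 0.30 for Bre1a (n = 2, limma adjusted p = 0.0237) and -0.18 ± 0.21 for Bre1b, which did not pass (limma adjusted p = 0.0618). The Col4a1 ratio minus the Col4a2 ratio ran from -0.50 to -0.08 over the 4 arrays, so Col4a1 read lower on each.

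Of the type VI chains, Col6a1 had 2 spots with values on all arrays, and their means per array were -0.75 against mock and -0.89 against no knockdown for Bre1a, with -0.34 and -0.42 for Bre1b. Both spots read below 0 on every array, and the Bre1a values lay below the Bre1b values on each spot. The mean was -0.82 ± 0.10 for Bre1a (n = 2, limma adjusted p = 0.0212) and -0.38 ± 0.06 for Bre1b (limma adjusted p = 0.0133). One further Col6a1 spot had 3 values, -0.59 against mock and -1.55 against no knockdown for Bre1a and -2.72 for Bre1b against no knockdown. That spot was lower too, but with the knockdowns in the opposite order, and it was not part of the test. Col6a2 had -0.47 and -0.83 against mock and no knockdown for Bre1a, and 0.08 and -0.45 for Bre1b. Col6a2 was below 0 on 3 of 4 arrays. Its mean was -0.65 ± 0.26 for Bre1a (n = 2, limma adjusted p = 0.0231), and -0.19 ± 0.37 for Bre1b, which did not pass (limma adjusted p = 0.0682).

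Of the fibril chains, Col1a1 had 0.34 against mock and 0.62 against no knockdown on the Bre1a arrays, and -0.05 and 0.24 on the Bre1b arrays. Both Bre1a values exceeded both Bre1b values. Its mean was 0.48 ± 0.20 for Bre1a (n = 2, limma adjusted p = 0.0225) and 0.09 ± 0.21 for Bre1b (limma adjusted p = 0.121). Col1a2, the other chain of type I, had 0.05 and 0.08 for Bre1a, and -0.08 and -0.27 for Bre1b. The value of 0.08 is the most repeated value of its array, whose origin is not given in the sources used here, and Col1a2 passed no test (limma adjusted p = 0.434 for Bre1a and 0.102 for Bre1b). The interval of its Bre1a mean ran from -0.15 to 0.27 (95%, limma). Whether the type I chains differ from each other was not tested. The Col1a1 ratio minus the Col1a2 ratio ran from 0.03 to 0.55 over the 4 arrays.

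Col3a1 rested on 2 spots of the same transcript accession that disagreed. The first read -1.31 against mock and -2.07 against no knockdown for Bre1a, with -0.29 and -0.58 for Bre1b. The second read -0.18 and -0.18 for Bre1a, with -0.08 and 0.11 for Bre1b, and both of its Bre1b values were at the repeated value of their array. Averaged over spots, Col3a1 was at -0.93 ± 0.27 for Bre1a (n = 2, limma adjusted p = 0.0237) and -0.21 ± 0.03 for Bre1b (limma adjusted p = 0.13). Tested alone, the second spot did not pass for Bre1a (limma adjusted p = 0.103, in a fit of each probe on its own that called 40.4% of 12958 probes), so the size of the Col3a1 value is set by the first spot. For Bre1a the spots differed by 1.51, a range larger than in 98.4% of the 2821 genes with several spots, whose median range was 0.17. Which spot measures the transcript better was not tested.

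The type V chains differed from control in opposite directions after Bre1b knockdown. Col5a1 had 0.10 and -0.004 against mock and no knockdown for Bre1a, and 0.51 and 0.29 for Bre1b. Col5a1 averaged 0.05 ± 0.07 for Bre1a (n = 2, limma adjusted p = 0.434) and 0.40 ± 0.16 for Bre1b (limma adjusted p = 0.0152). Col5a2, a neighbour of Col3a1 on chromosome 1 with 0 annotated genes between them, had 2 complete spots with means of -0.24 and 0.01 for Bre1a, and -1.07 and -0.44 for Bre1b. Both spots read below 0 on both Bre1b arrays, from -1.29 to -0.27. Its mean was -0.12 ± 0.18 for Bre1a (n = 2, limma adjusted p = 0.354) and -0.75 ± 0.45 for Bre1b (limma adjusted p = 0.0171). Its lower values lay on the Bre1b arrays, and those of its neighbour Col3a1 on the Bre1a arrays.

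**Figure D1:**
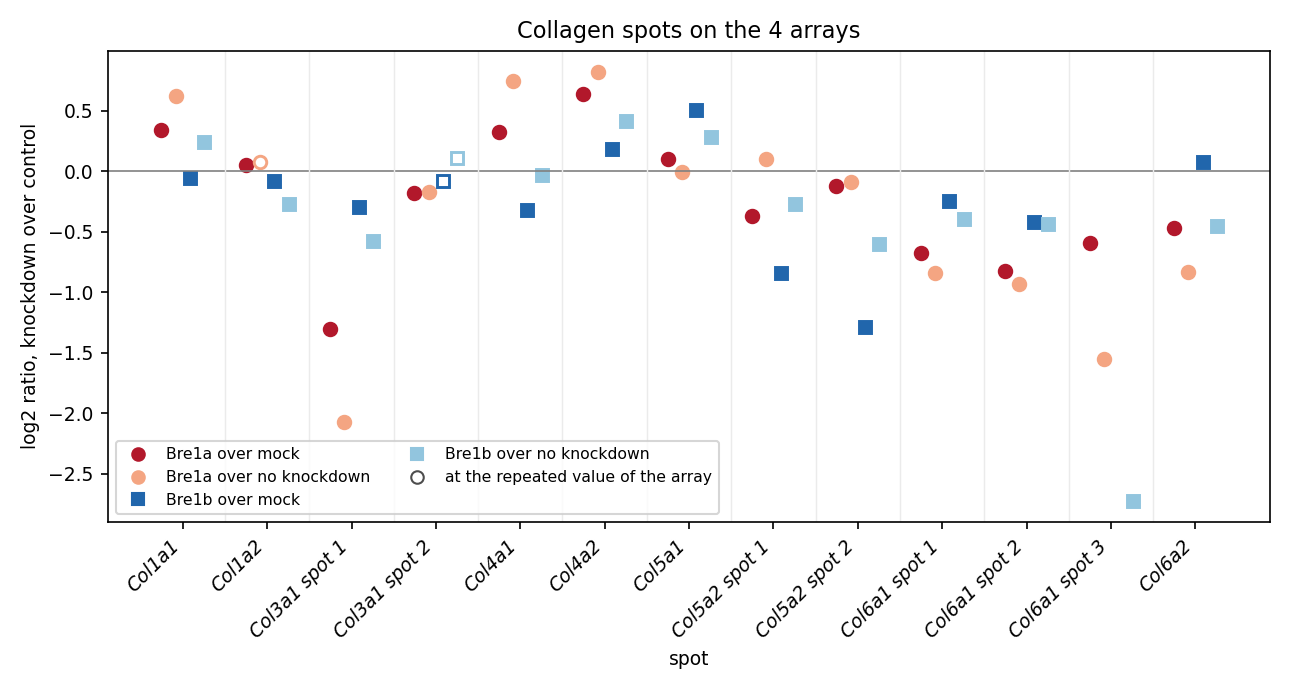
Log2 ratio of knockdown over control (vertical axis) for each of the 13 collagen spots (horizontal axis) on the 4 arrays, red circles for Bre1a and blue squares for Bre1b, dark against mock and light against no knockdown; open symbols are at the most repeated value of their array. The type IV spots and Col1a1 lie above 0 on the Bre1a arrays, the type VI spots below, and the 2 Col3a1 spots differ by 1.51 in their Bre1a means.

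For Bre1a over control, 3 of the 9 measured chains passed the test as higher and 3 as lower (limma, Benjamini-Hochberg over all 8676 genes, adjusted p under 0.05), while 21.1% and 19.9% of all genes did so, 40.9% in either direction. The median of the 9 was 0.05, beside 0.03 over all genes. The chains were spread to both sides of that median, with a median size of 0.53 against 0.21 for all genes. Col4a2 lay above 97.9% of all genes, Col4a1 above 95.7% and Col1a1 above 94.4%. Only 4.02%, 5.22% and 7.77% of genes lay below Col3a1, Col6a1 and Col6a2. The model has a term for the control and rests on 1 residual degree of freedom. Without that term limma called 0 of the 9 chains, with 6 at an unadjusted p under 0.05 and a lowest adjusted p of 0.0719, and it called 0.0231% of all genes.

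For Bre1b over control, 2 chains passed as higher and 2 as lower, where 32.3% and 28.2% of all genes passed in these directions, 60.4% in all. This share of the chains is not above that background. Their median was -0.18, beside 0.02 over all genes, and their median size was 0.21 against 0.31. The lowest chain, Col5a2, had 9.98% of genes below it, and the highest, Col5a1, lay above 81.3% of genes. Without the control term 0 of the 9 passed in limma, with 3 at an unadjusted p under 0.05 and a lowest adjusted p of 0.0775, and 1.87% of all genes were called.

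**Figure D2:**
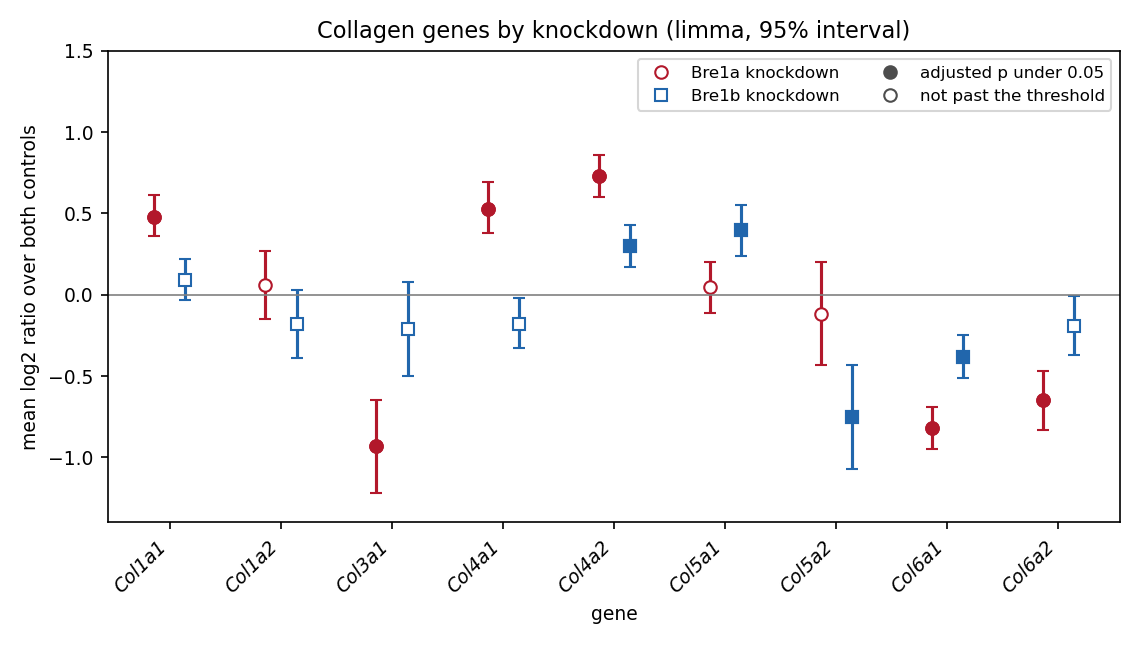
Mean log2 ratio over both controls (vertical axis) with its 95% interval from limma for the 9 measured collagen genes (horizontal axis), red circles for Bre1a and blue squares for Bre1b knockdown; filled symbols have an adjusted p under 0.05. For Bre1a, 3 genes are filled above 0 and 3 below, and for Bre1b 2 above and 2 below.

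The knockdowns were compared directly in the same fit, as Bre1a minus Bre1b. A dye bias that is equal on the arrays cancels in this difference, and so do the controls if the arrays shared the same control RNA, which the labels do not say. Of the 9 chains, 3 were higher with Bre1a than with Bre1b knockdown and 2 lower, beside 11.7% and 13.2% of all genes in these directions, 24.9% in all. Col4a1 had differences of 0.64 on the arrays against mock and 0.77 on those against no knockdown, a mean of 0.71 ± 0.09 (n = 2, limma adjusted p = 0.0378). Col4a2 had 0.45 and 0.40, a mean of 0.43 ± 0.03 (limma adjusted p = 0.0423). Col1a1 had 0.39 and 0.38, with a limma adjusted p of 0.0439. For these 3 genes the arrays against mock and those against no knockdown gave similar differences. The test takes its residual from the gap between these readings, so a small gap is part of the call and no separate support. Both type VI genes were lower with Bre1a knockdown. Col6a1 differed by -0.41 and -0.47 (limma adjusted p = 0.0418), and Col6a2 by -0.54 and -0.38 (limma adjusted p = 0.0497). Col3a1 (-0.72, limma adjusted p = 0.0504), Col5a2 (0.63, 0.0649), Col5a1 (-0.35, 0.0552) and Col1a2 (0.24, 0.142) did not pass. Their 95% limma intervals, which are not adjusted, lay off 0 for Col3a1 (-1.13 to -0.32), Col5a2 (0.19 to 1.08) and Col5a1 (-0.57 to -0.13). That of Col1a2 took in 0 (-0.06 to 0.54). A difference is thus not excluded for any of these 4. In all, 8 of the 9 chains had an unadjusted p under 0.05 in limma, as did 4136 of the 8676 genes. Without the control term limma called 0 chains, with 3 at an unadjusted p under 0.05, and 0 of all genes. The difference was also not called for any chain with arrays scaled to 1 spread or with every available probe averaged, settings in which 0 of all genes passed. With arrays centred on their medians the Col6a2 difference was -0.47 and no longer passed (limma adjusted p = 0.0536), while Col3a1 (-0.74, 0.038) and Col5a2 (0.62, 0.0492) did. With the partial spot averaged in, Col6a1 differed by -0.14 in place of -0.44.

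The difference between the controls, mock minus no knockdown, was read as the array against no knockdown minus the array against mock. It was available on the arrays of both knockdowns, which may share the same control RNA. None of the 9 chains passed (0 called by limma, 4 at an unadjusted p under 0.05, lowest adjusted p = 0.0599), where 7.26% of all genes were called higher and 6.12% lower, 13.4% in all. Col1a1 gave 0.28 on the Bre1a arrays and 0.29 on the Bre1b arrays, Col4a1 gave 0.42 and 0.29, and Col4a2 gave 0.18 and 0.23. All 3 read higher in mock cells on both pairs of arrays, without passing the test. Col6a2 gave -0.36 and -0.53, and Col6a1 -0.14 and -0.08. For Col5a2 the values were 0.25 and 0.63, so its ratio after Bre1b knockdown was larger in size against mock than against no knockdown. Col1a2 alone changed sign, with 0.03 and -0.19. Over all 8676 genes same-numbered arrays also deviated together (r = 0.602), so like signs are not particular to the chains. The share of all genes with like signs was not counted.

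**Figure D3:**
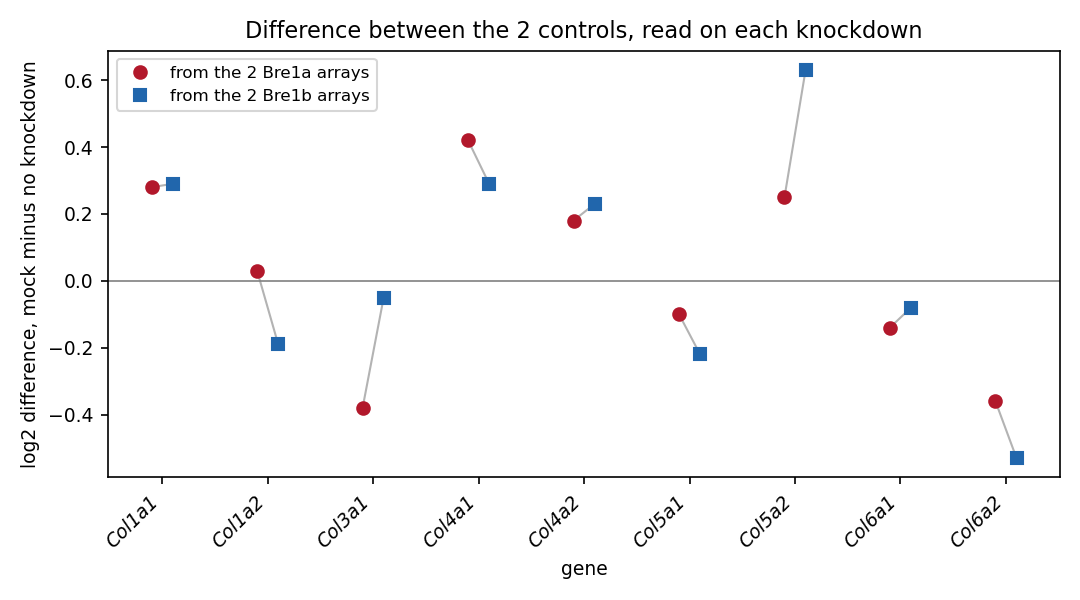
Log2 difference of mock minus no knockdown (vertical axis) for the 9 measured collagen genes (horizontal axis), read from the 2 Bre1a arrays (red circles) and from the 2 Bre1b arrays (blue squares), joined by a line per gene. In 8 genes both readings have the same sign, and Col1a2 has 0.03 and -0.19. The share of all genes with like signs was not counted.

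Other genes of collagen biology were read from 10 lists, with 93 genes measured, of which 8 were higher and 37 lower for Bre1a and 19 higher and 38 lower for Bre1b. Of all genes, 21.1% were called higher and 19.9% lower for Bre1a, and 32.3% higher and 28.2% lower for Bre1b. Each list's count below stands beside these shares. Members and lists were chosen with earlier results of these data known, so the comparison describes them and is no test. Without the control term 0 of the 93 passed for Bre1a and 2 for Bre1b, Loxl3 and Matn2. Among other collagen chains, 11 of 33 were measured, with 2 higher and 2 lower for Bre1a (median -0.12) and 1 higher and 5 lower for Bre1b (median -0.61). Col9a3, a chain of the cartilage collagen type IX, had 3.83 and 1.21 against mock and no knockdown for Bre1a and 2.29 and 1.16 for Bre1b. Col4a5, a further type IV chain, was lower for Bre1a at -0.66 ± 0.26 (n = 2), where Col4a1 and Col4a2 were higher. Col18a1, a basement membrane collagen, depended on the control, with -0.09 and 1.28 for Bre1a and -1.38 and 0.17 for Bre1b. Col8a1, a short-chain collagen, had -1.34 and 1.10 for Bre1a and -2.70 and -0.36 for Bre1b. For both genes mock cells were higher than cells with no knockdown, by 1.46 and 2.39 in log2 (limma adjusted p = 0.0475 each), more than for any of the 9 chains.

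Enzymes that modify procollagen in the endoplasmic reticulum gave 0 higher and 4 lower of 18 measured for Bre1a (median -0.05), and 4 higher and 9 lower for Bre1b (median -0.18). Over all genes 21.1% were higher and 19.9% lower for Bre1a, and 32.3% higher and 28.2% lower for Bre1b. For Bre1a the lower count is near its background and the higher count below it. For Bre1b the lower count is above its background and the higher count below it. No test of the list as a whole was run. The prolyl hydroxylase subunit P4ha1 had -0.98 and -0.12 against mock and no knockdown for Bre1a and -1.36 and -0.53 for Bre1b. The galactosyltransferase Colgalt2 was at -0.85 ± 0.87 for Bre1a and -1.92 ± 0.65 for Bre1b (n = 2). Serpinh1, the collagen chaperone, and P4hb, the other prolyl hydroxylase subunit, are named here after their values were seen, since both sat at the repeated value on all 4 arrays, as did 153 of the 8676 genes. Of 10 measured export genes 2 were higher and 1 lower for Bre1a (median 0.11) and 3 higher and 1 lower for Bre1b (median 0.11), with the coat GTPase Sar1b at 0.26 ± 0.06 and 0.50 ± 0.05. Of 3 measured genes for propeptide cleavage limma called 0 for either knockdown, with 0 at an unadjusted p under 0.05 and medians of 0.09 and 0.02. Pcolce, named after its values were seen, holds the Bre1a median. It read 0.08 for Bre1a against no knockdown, and -0.08 and 0.11 for Bre1b against mock and no knockdown. To these digits, those 3 values equal the repeated values of their arrays (0.079, -0.079 and 0.11).

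Most measured crosslinking enzymes and fibril partners were lower with either knockdown. This describes lists chosen with earlier results of these data known, and neither list was tested as a set. Of 6 measured crosslinking genes 0 were higher and 5 lower for each knockdown, with medians of -1.21 for Bre1a and -0.57 for Bre1b, where 19.9% and 28.2% of all genes were lower. The 5 were not the same genes. Lox, a lysyl oxidase, was lower for Bre1a at -1.27 but at -0.03 for Bre1b, which did not pass. Loxl3 was lower for Bre1b, and its Bre1a mean of -1.22 did not pass (limma adjusted p = 0.0856). Of the 6, 3 were also called higher in mock cells than in cells with no knockdown, namely Loxl1, Loxl2 and Tgm2, so that their ratios depend on the control. Loxl2, another lysyl oxidase, named after its values were seen, had -0.56 and 0.14 against mock and no knockdown for Bre1a, and -0.65 and -0.02 for Bre1b. Tgm2, a transglutaminase, was at -1.58 ± 0.51 for Bre1a and -1.73 ± 0.58 for Bre1b (n = 2), and Loxl3, a lysyl oxidase, at -3.10 ± 0.41 for Bre1b. Of 9 measured fibril partners 0 were higher and 8 lower for Bre1a (median -0.94), and 0 higher and 7 lower for Bre1b (median -0.92), beside the same 19.9% and 28.2% of all genes. Here too 3 genes, Aspn, Emilin1 and Ogn, were called higher in mock cells than in cells with no knockdown. Asporin (Aspn), a small leucine-rich proteoglycan, had -3.95 and -2.21 for Bre1a and -2.91 and -0.72 for Bre1b against mock and no knockdown. Decorin (Dcn), a proteoglycan of the same family that binds fibrils, was at -1.04 ± 0.39 for Bre1a and -1.07 ± 0.55 for Bre1b (n = 2). The medians over all genes were 0.03 and 0.02. Col1a1 lay above its controls after Bre1a knockdown while the RNA of most measured genes on these lists of fibril partners and crosslinking enzymes lay below. Col1a1 was the only measured member among the fibril chains called higher there. Col3a1 was called lower, with spots that disagree, and Col1a2, Col5a1 and Col5a2 did not pass.

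Of 5 measured basement membrane partners 1 was higher and 3 lower for Bre1a (median -0.21), and 1 higher and 1 lower for Bre1b (median -0.09). Nidogen (Nid1), which links laminin to type IV collagen, was the one that was higher, with 1.12 and 0.90 for Bre1a and 1.07 and 0.79 for Bre1b. Of 7 collagen receptors 0 were higher and 5 lower for Bre1a (median -0.32) and 1 higher and 4 lower for Bre1b (median -0.26). Cspg4, a proteoglycan that binds type VI collagen, was at -0.55 ± 0.42 for Bre1a and -0.74 ± 0.43 for Bre1b (n = 2). Among 8 genes of collagen degradation 1 was higher and 4 lower for Bre1a (median -0.18), and 2 higher and 2 lower for Bre1b (median 0.02). Of these 8, 3 genes (Mmp14, Timp1 and Timp2) sat at the repeated value on all 4 arrays, and the Bre1b median is at their value. The collagenase Mmp13 was at -1.68 ± 1.22 for Bre1a and -0.63 ± 1.33 for Bre1b (n = 2). Its Bre1b values were -1.56 against mock and 0.31 against no knockdown. Mmp13, Mmp2 and Mmp9 were called higher in mock cells than in cells with no knockdown, and Mmp3 lower, so that their ratios depend on the control. Of 16 upstream regulators 2 were higher and 5 lower for Bre1a (median -0.13), and 7 higher and 4 lower for Bre1b (median 0.14), where 40.9% and 60.4% of all genes were called in either direction. Ccn2, a matricellular growth factor, had 0.29 and 2.28 against mock and no knockdown for Bre1a and 1.01 and 2.80 for Bre1b, and was called higher for both, with mock cells above cells with no knockdown by 1.89. The growth factor Tgfb1, an inducer of collagen genes, had -0.78 and -0.73 for Bre1a and -0.64 and -0.66 for Bre1b, nearly the same on all 4 arrays.

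**Figure D4:**
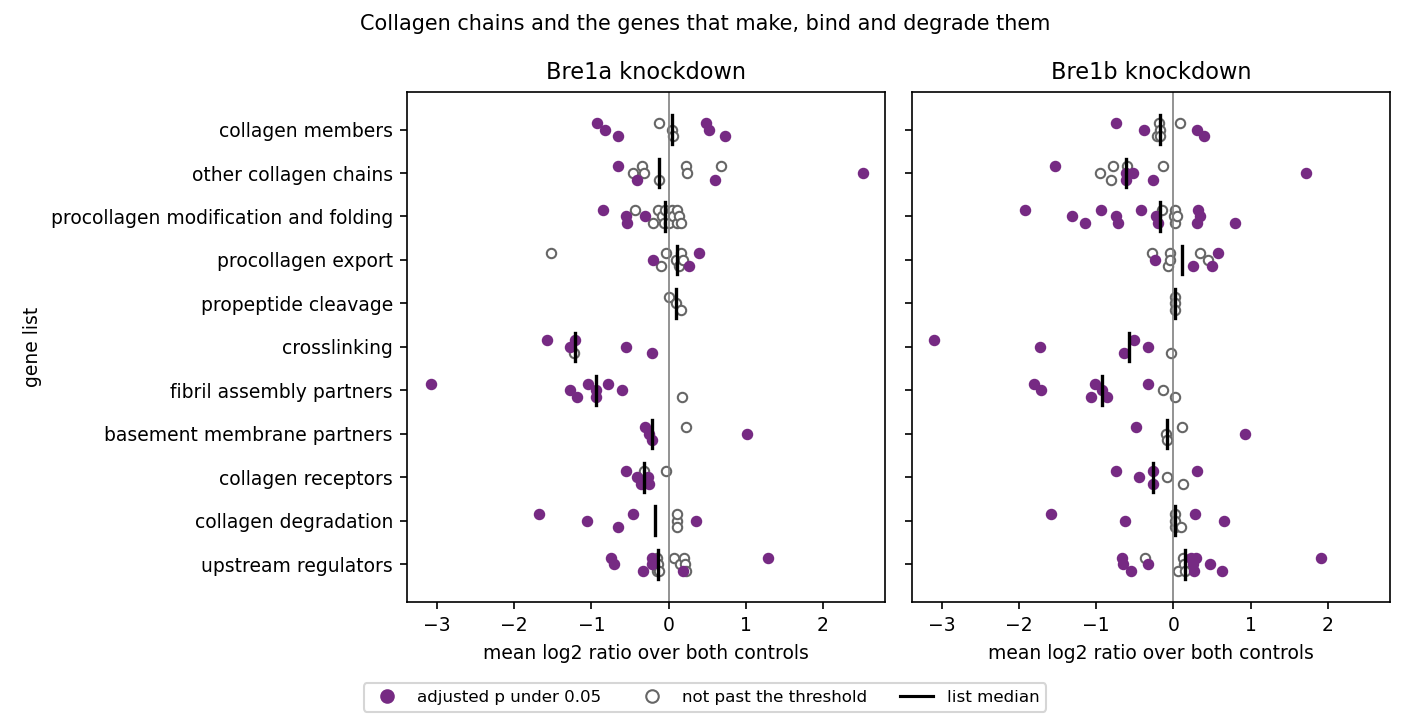
Mean log2 ratio over both controls (horizontal axis) of the 9 measured collagen members and of the genes of 10 lists (rows), for Bre1a knockdown on the left and Bre1b knockdown on the right; filled points have a limma adjusted p under 0.05 and vertical bars are list medians. The collagen members spread to both sides of 0, while crosslinking genes and fibril assembly partners lie mostly below it.

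The genes outside the 10 members whose ratios were nearest to a member were found by Euclidean distance over the 4 arrays, for the members with the largest mean size. Nearest to Col6a1 were Csrp2 (distance 0.146), Dbndd2 (0.158), Cc2d2a (0.188), Tspan11 (0.203) and Habp4 (0.213). Nearest to Col3a1 were Jam2 (0.148), Thnsl1 (0.202), Akap12 (0.226), Zfand5 (0.265) and Bcl3 (0.30). The Col3a1 ratios compared here are an average over spots that disagree, and neither spot was compared alone. In all 8667 genes were compared, each over 4 values.

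The arrays had 19874 to 22255 spots with a value, of which 3.51% to 4.09% were at the repeated value of their array, beside 3 of the 51 collagen values. Of 10 fibroblast markers 7 were measured. For Bre1a 0 were higher and 3 lower (median -0.09), and for Bre1b 1 higher and 3 lower (median -0.13). Of all genes, 21.1% were called higher and 19.9% lower for Bre1a, and 32.3% higher and 28.2% lower for Bre1b. S100a4, among the 7, sat at the repeated value on all 4 arrays. The receptor Pdgfra was at -0.86 for Bre1a and -1.30 for Bre1b, Pdgfrb at -0.86 and -0.59, and Vim at 0.14 and 0.02. Twist2 was at 0.14 for Bre1a, which did not pass, and was the marker called higher for Bre1b, at 0.68. Dcn, already counted among the fibril partners, was the remaining lower marker for both knockdowns. Of the markers of other cell types few were measured, namely 1 of 8 for leukocytes, 3 of 7 for epithelium, 1 of 7 for endothelium and 2 of 5 for muscle. Leukocyte Cd14, endothelial Eng, and muscle Des and Acta1 did not pass for Bre1a. For Bre1b they were called at 0.28, -1.14, -1.88 and 1.32, where 60.4% of all genes were called in either direction. The epithelial keratins Krt8 and Krt18 were at -1.25 and -1.21 for Bre1a and at -0.71 and -0.11 for Bre1b. Krt18 did not pass for Bre1b (limma adjusted p = 0.0992). Krt8 for Bre1b was -1.62 against mock and 0.20 against no knockdown. Epcam, the other epithelial marker measured, was at 0.18 for Bre1a, which did not pass, and at -0.39 for Bre1b. Whether any change in the cells behind these markers bears on the collagen values was not tested.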

How the data were processed

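The authors deposited 1 table of log2 ratios of Cy5 over Cy3 per spot, with the dyes given per the labels. The base of 2 was read from the values: 33 to 63 spots per array lie within 0.002 of 1 below its most repeated value, against means of 11.2 to 17.7 in windows beside it, with no such excess at the steps for base 10 or e. How the scans were read, corrected, normalized and filtered is not stated in these sources, so neither a loess nor a background alternative could be run, and depth has no counterpart beyond the number of arrays, which limits the precision. Gene names come from the platform annotation at GEO, where 22204 spots had 1 gene symbol, 0 several and 16580 none. All 22204 gene IDs were found in the GRCm38.p6 gene table and 0 symbols changed. Complete spots of a gene were averaged.

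Moderated two-sided tests were run in R 4.3.3 with limma 3.58.1, with p-values adjusted by Benjamini-Hochberg across the 8676 genes and a threshold of 0.05. Each knockdown had its own coefficient beside a centred term for the control, which leaves 1 residual and 1.57 prior degrees of freedom. The control is also the replicate number of the titles. Same-numbered arrays deviated together (r = 0.602 over 8676 genes, 2 pairs), and the pairing comes from the labels' shared control. A value within 0.002 of an array's most repeated value counts as repeated. The script was tested on simulated data. Members and lists were chosen with earlier results of these data known. Named were all members, at most 4 called genes per list and knockdown by size, the targets, and the 5 nearest genes of 2 members; markers and genes named after seeing values are extra. Alternatives were no control term, no repeated values, centring, scaling, 1 probe per gene, all available probes, each array left out and, chosen after seeing the data, each probe on its own.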

Additional observations from a re-analysis of the deposited data

Results flagged for a closer look

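For 5 chains the test of the difference between the knockdowns passed, with Bre1a minus Bre1b at 0.71 for Col4a1, 0.43 for Col4a2, 0.39 for Col1a1, -0.44 for Col6a1 and -0.46 for Col6a2 (limma adjusted p from 0.0378 to 0.0497). Col4a1 was the one of these whose arrays lay on opposite sides of 0, above for Bre1a and below for Bre1b. Without the control term these 5 had adjusted p from 0.312 to 0.45.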

How the results depend on the processing

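No called value of a chain changed sign under any alternative run. Of values that were not called, Col3a1 for Bre1b was -0.21 but 0.02 with 1 probe per gene, and its mock minus no knockdown value -0.21 but 0.10. With 1 array left out, Col5a2 for Bre1a turned to 0.01 and Col5a1 to -0.004, and Col1a1 and Col6a2 for Bre1b to -0.05 and 0.08. Without the replicate block, that is without the control term, the number of chains called was 0 for Bre1a, 0 for Bre1b and 0 for Bre1a minus Bre1b, against 6, 4 and 5 with it. With 1 array left out, in the fit without the control term, it was 0 to 0 for each comparison, while among all genes 7 to 131 were called for Bre1a, 0 to 1142 for Bre1b and 0 to 70 for the difference, and the cause was not tested. The lone array left in a group is then assumed to vary like the others. With arrays scaled to 1 spread, 2 chains were called for Bre1b and 0 for the difference between the knockdowns. With all available probes averaged, 0 were called for that difference, and its adjusted p was 0.0526 to 0.0645 for 4 of the 5 chains and 0.517 for Col6a1. Without repeated values Col3a1 rested on its first spot and passed for the difference (-1.25, adjusted p = 0.0417). For all genes, scaling gave 1943 calls for Bre1a against 3551, 2866 for Bre1b against 5244, and 0 for the difference between the knockdowns and for mock minus no knockdown, against 2161 and 1161. All available probes averaged likewise gave 0 for these last comparisons. The fit without the control term called 2 genes for Bre1a and 162 for Bre1b. The control comparison was not run without its own term. No intensities were analysed here, so signal over background could not be weighed.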
